A study of Mus musculus with 8 samples.

Results

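The pore-forming alpha-1 subunits of voltage-gated calcium channels were followed in N18TG2 mouse neuroblastoma cells and in the ChAT-expressing 2/4 clone, each with and without retinoic acid (RA). The family has 10 genes: Cacna1g, Cacna1h and Cacna1i for the T-type channels, Cacna1a for the P/Q-type, Cacna1b for the N-type, Cacna1e for the R-type, and Cacna1c, Cacna1d, Cacna1f and Cacna1s for the L-type. They were found through the RefSeq accession that each array probe carries, with no use of measured values. All 10 had probes, 16 of the 55681 on the array, and 8 of the 10 were bright enough to be tested among 26262 genes. The question set by the design was how the clone differs from its parental line, and how each responds to RA.

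An alpha-1 subunit forms the pore, the voltage sensor and the gate of the channel, and so decides the class of calcium current. High-voltage-activated channels (L, P/Q, N and R type) need strong depolarization and work with auxiliary beta and alpha2-delta subunits, which bring them to the membrane. T-type channels open near the resting potential, inactivate fast and can work without those subunits. In neurons the P/Q- and N-type channels admit the calcium that triggers transmitter release, while L-type channels pass calcium signals from the cell body to the nucleus.

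Expression was measured on 8 one-colour Agilent mouse arrays, 2 per group. N18TG2 is a mouse neuroblastoma line, and the 2/4 clone is a derivative of it that expresses choline acetyltransferase (ChAT, gene Chat), the enzyme that makes acetylcholine; it is 1 clone. The 4 groups were untreated parental cells, parental cells with RA, the untreated clone, and the clone with RA. All-trans RA was given at 1 µM, from a stock in dimethyl sulphoxide, in medium with 1% serum, whereas growth medium held 10% serum. The clone alone was kept in G418 (200 µg/mL), a selection drug, so clone and drug cannot be told apart. The labels used here give neither the medium of the untreated cells nor the duration of RA, so RA and low serum cannot be told apart either. They also do not say whether the 2 arrays of a group hold separate cultures, and p-values may then measure technical spread only.

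Each level below is a log2 intensity relative to the 75th percentile of its array, so 0 is a bright gene. Because probes differ in brightness, levels are compared between arrays for 1 probe and never between genes. "Above background" means that the scanner software called the spot well above its local background. All 8 arrays lay on 1 slide, with parental RA and untreated clone arrays in row 1 and the other groups in row 2. Within a treatment the 2 lines therefore lie in different rows, as do RA and untreated cells of a line, and the rows are balanced only when the line difference is averaged over both treatments or the RA difference over both lines. The columns are never balanced for the line: parental arrays lay in columns 1 and 3 and clone arrays in columns 2 and 4. Line and column therefore cannot be told apart in any line comparison, the averaged one included. One array stood apart: clone RA replicate 1 had 72.1% of its spots above background against 48.6% to 63.3% on the others. Its correlation with replicate 2 was 0.962, against 0.983 to 0.987 within the other groups. Of 11599 kept probes that were not above background everywhere, 27.3% were over 2 log2 units brighter on it than on replicate 2, and 0.129% were dimmer by as much. All 11 markers of sympathetic neuroblasts were above background on every array. The extraction protocol names hippocampus, but between 0 and 4 of 8 hippocampal neuron markers were above background on an array, and Prox1, Neurod6, Neurod2 and Gad1 never were. The Chat probe read -2.63 and -4.57 in untreated parental cells, -3.22 and -5.06 in parental cells with RA, -3.73 and -2.71 in the untreated clone, and 1.10 and -2.58 in the clone with RA. Its parental and untreated clone arrays overlapped, and its highest value was the array that stood apart.

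The clone carried more mRNA of 3 calcium channel genes than the parental line: the T-type genes Cacna1h and Cacna1g and the P/Q-type gene Cacna1a. Averaged over the treatments, the level was 6.95-fold higher for Cacna1h, 2.97-fold for Cacna1g and 2.59-fold for Cacna1a. Without RA, Cacna1h and Cacna1g were higher, and with RA all 3 were. No tested channel gene was lower in the clone, and none changed with RA in either line by the test used. The tests were limma's moderated tests across all genes, and a gene counted as called when its Benjamini-Hochberg adjusted p was under 0.05. In the averaged comparison 3 of 8 tested channel genes were called, beside 27.7% of all genes called in either direction and 16.1% called higher. In untreated cells it was 2 of 8 beside 9.82% of all genes (6.13% higher), and with RA 3 of 8 beside 23.2% (12.9% higher). Counts over 8 genes are too small to be set apart from these shares. Probe by probe, 3, 5 and 5 of the 12 kept channel probes were called in the untreated, RA and averaged comparisons, beside 8.04%, 19.8% and 24.9% of all kept probes. The median difference over the 8 genes was 1.29 on the log2 scale in the averaged comparison, and over all genes 0.12. These comparisons share arrays, so they do not repeat each other independently.

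Summed marker levels, compared between arrays within a list, also moved with the groups. The summed scaled intensity of the 11 sympathetic neuroblast markers was 233 and 313 in untreated parental cells, 98.5 and 146 in parental cells with RA, 289 and 291 in the untreated clone, and 468 and 547 in the clone with RA. The 8 Schwann and glial markers, of which 4 to 6 were above background and Olig2 never was, summed to 1.74 and 1.89, 0.935 and 1.46, 0.687 and 0.720, and 0.718 and 0.852 in the same order. The 8 vessel and microglia markers, with 3 to 5 above background and Cdh5, Cx3cr1 and Hbb-bt never, summed to 2.03 and 2.26, 0.902 and 1.01, 1.01 and 1.11, and 0.859 and 1.34. The 6 fibroblast markers, with 2 to 5 above background and Lum never, summed to 0.811 and 1.17, 0.579 and 0.724, 1.08 and 1.22, and 1.23 and 1.41. The sympathetic sum was thus highest in the clone with RA, and the glial sum lower in every clone array than in every parental array. Their part in the channel differences was not tested.

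**Figure D1:**
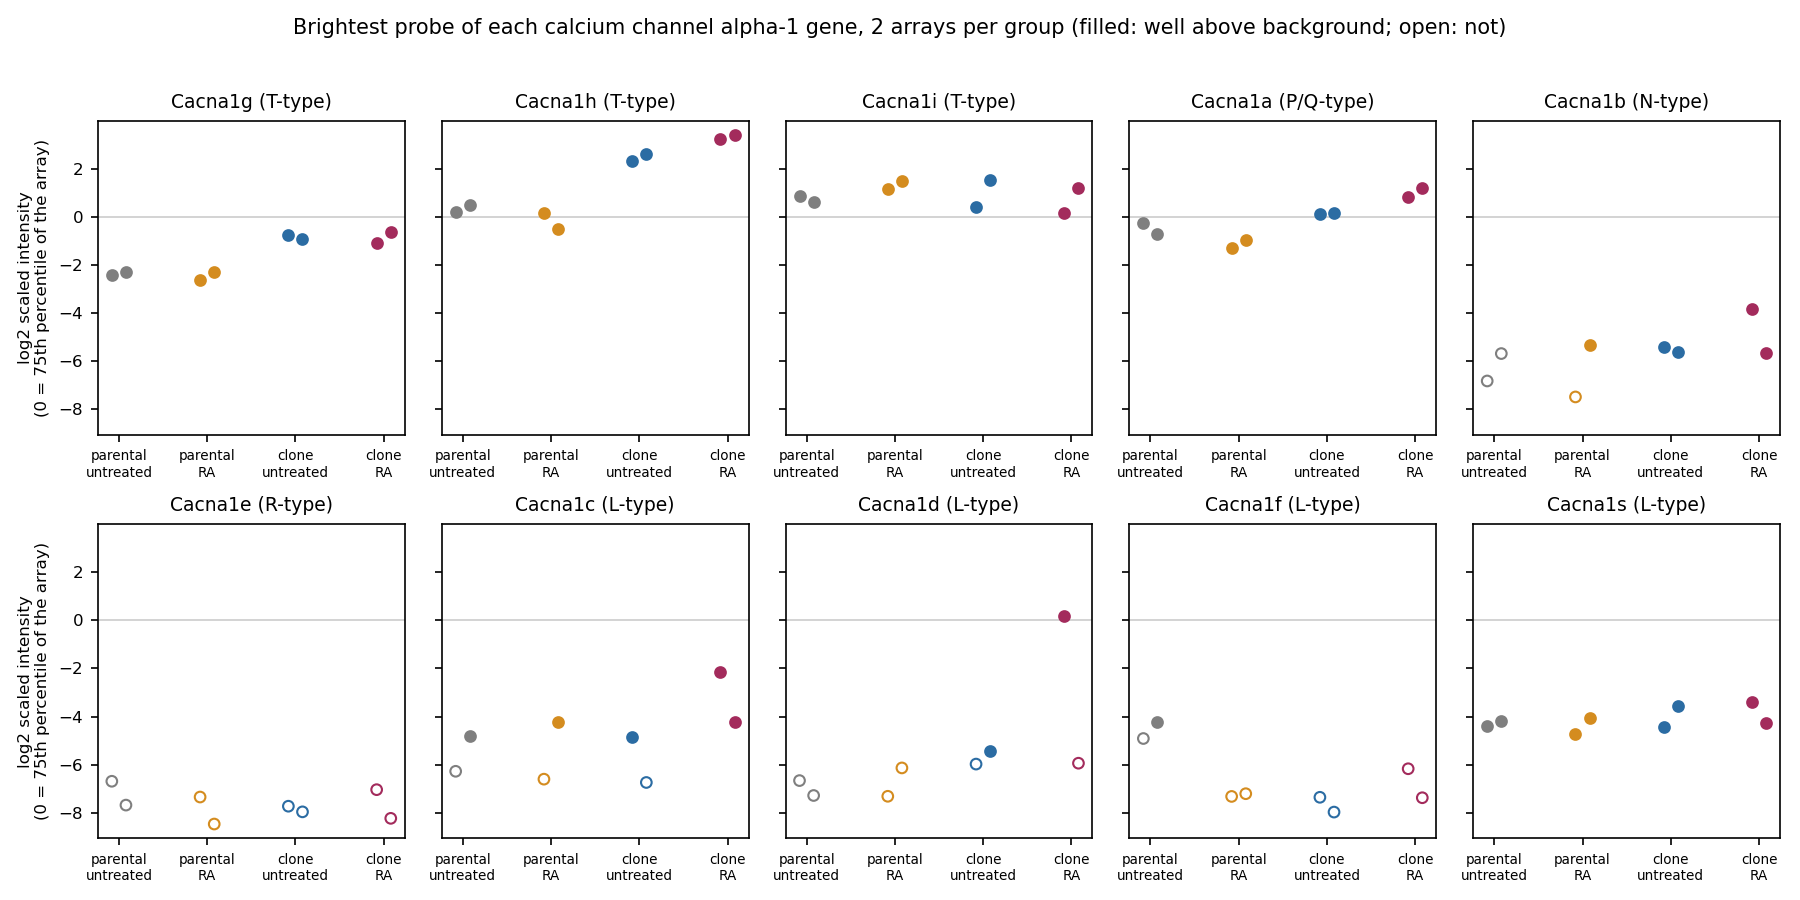
Level of the brightest probe of each of the 10 alpha-1 genes on every array (vertical axis, log2 intensity relative to the 75th percentile of the array; 2 arrays per group along the horizontal axis). Filled points are well above background and open points are not; Cacna1h, Cacna1g and Cacna1a have all clone arrays above all parental arrays, and Cacna1e has no filled point.

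Cacna1h encodes a T-type pore found in sensory and neuroendocrine cells. Its brighter probe read 0.19 and 0.49 in untreated parental cells and 0.18 and -0.50 in parental cells with RA. In the clone it read 2.32 and 2.59 without RA and 3.22 and 3.41 with RA. Every clone array lay above every parental array, and the clone with RA above the untreated clone. The clone was higher by 2.12 ± 0.32 on the log2 scale (fitted difference ± SE, 2 arrays per group; adjusted p = 0.00857) without RA, a 4.34-fold difference. With RA it was higher by 3.47 ± 0.32 (adjusted p = 0.000677), 11.1-fold. The average of both was 2.80 ± 0.23, with a 95% interval of 2.25 to 3.34 (adjusted p = 0.000242).

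Clone minus parental in Cacna1h had the same sign in each place on the slide where it could be read, with sizes from 2.10 to 3.90. Clone minus parental was 2.13 on the left and 2.10 on the right side for untreated cells, and 3.05 and 3.90 with RA. Within row 1 the untreated clone was 2.62 above parental cells with RA, and within row 2 the clone with RA was 2.97 above untreated parental cells. The within-row values thus mix line with RA. In all of these places line and column go together, so they are no check on the column. The call in untreated cells was lost when untreated clone replicate 1 (adjusted p = 0.0508), untreated clone replicate 2 (adjusted p = 0.0821) or untreated parental replicate 1 (adjusted p = 0.0688) was left out, with differences of 1.97 to 2.27 over all arrays left out in turn.

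A second, dim Cacna1h probe, which carries the accession of another transcript of the gene, gave a smaller difference. It read -4.65 and -4.06 in untreated parental cells, -4.62 and -4.06 in parental cells with RA, -3.53 and -4.03 in the untreated clone, and -2.48 and -3.49 in the clone with RA. All clone arrays were again above all parental arrays, although the nearest lay at -4.03 and -4.06. The averaged difference was 0.96 ± 0.32 (adjusted p = 0.0692 over all probes) and was not called. It was above background on 7 of 8 arrays.

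Cacna1g encodes the T-type pore of thalamic and other pacing neurons. Its brighter probe read -2.43 and -2.30 in untreated parental cells, -2.61 and -2.31 in parental cells with RA, -0.77 and -0.91 in the untreated clone, and -1.07 and -0.63 in the clone with RA. Both parental groups lay together, both clone groups lay together, and the lines did not overlap. The clone was higher by 1.53 ± 0.29 (adjusted p = 0.0184) without RA and by 1.61 ± 0.29 (adjusted p = 0.00834) with RA. These are 2.88-fold and 3.05-fold differences. The averaged difference was 1.57 ± 0.20, with a 95% interval of 1.09 to 2.05 (adjusted p = 0.00174).

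The other Cacna1g probe, which carries the same accession, separated the lines further. It read -3.18 and -3.18 in untreated parental cells, -4.11 and -4.23 in parental cells with RA, -1.31 and -0.95 in the untreated clone, and -1.13 and -0.71 in the clone with RA. Here the parental arrays with RA lay below the untreated ones, which the brighter probe did not show. The averaged line difference was 2.65 ± 0.21 (adjusted p = 0.000299 over all probes). For RA in parental cells this probe gave -0.99 ± 0.30 (adjusted p = 0.214), against -0.10 ± 0.29 (adjusted p = 0.933) for the brighter probe. Cacna1g without RA was no longer called with another background correction (difference 1.04), without a filter on dim probes, or when any untreated array was left out. With RA it was no longer called when only the groups compared were fitted (adjusted p = 0.0632).

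Cacna1i, the T-type gene best known from the thalamus and habenula, did not follow the other 2. Its brighter probe read 0.87 and 0.62 in untreated parental cells, 1.14 and 1.48 in parental cells with RA, 0.41 and 1.51 in the untreated clone, and 0.14 and 1.21 in the clone with RA. The groups overlapped, and the arrays within each clone group were about 1 log2 unit apart. The averaged line difference was -0.21 ± 0.35, with a 95% interval of -1.03 to 0.61 (adjusted p = 0.682). The interval of Cacna1i lies below the interval of Cacna1g in the same comparison. Its dimmer probe ranged from -2.82 to -2.14 over the 8 arrays and gave 0.12 ± 0.23.

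**Figure D2:**
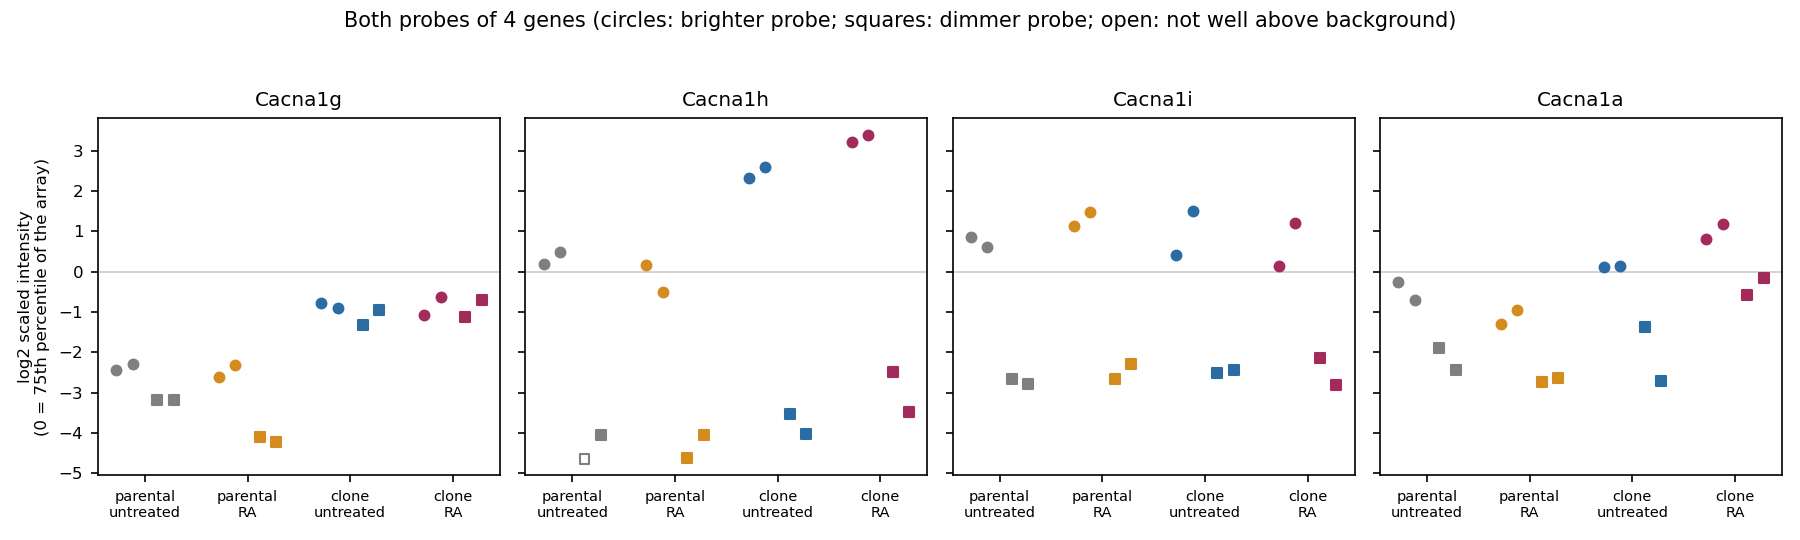
Levels of both probes of Cacna1g, Cacna1h, Cacna1i and Cacna1a on every array (vertical axis, log2 intensity relative to the 75th percentile of the array; groups along the horizontal axis, 2 arrays each). Circles are the brighter and squares the dimmer probe of a gene, and open symbols are not well above background; the clone lies higher with both probes of Cacna1g, while the brighter Cacna1h probe separates the lines further than the dimmer one.

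Cacna1a encodes the P/Q-type pore, the main release channel at many central synapses and at the motor nerve ending. Its brighter probe read -0.26 and -0.70 in untreated parental cells, -1.31 and -0.96 in parental cells with RA, 0.12 and 0.15 in the untreated clone, and 0.81 and 1.20 in the clone with RA. The 4 groups did not overlap, with parental cells with RA lowest and the clone with RA highest. With RA the clone was higher by 2.14 ± 0.30 (adjusted p = 0.00347), a 4.39-fold difference. Without RA the difference was 0.61 ± 0.30, with a 95% interval of -0.10 to 1.33 (adjusted p = 0.281), and was not called. The average was 1.37 ± 0.21, with an interval of 0.87 to 1.88 (adjusted p = 0.00391).

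The dimmer Cacna1a probe gave the same order with RA and no clear order without it. It read -1.90 and -2.43 in untreated parental cells, -2.73 and -2.63 in parental cells with RA, -1.38 and -2.71 in the untreated clone, and -0.58 and -0.14 in the clone with RA. The untreated clone overlapped the parental arrays on this probe, while both clone arrays with RA were above all others. With RA the clone was higher by 2.32 ± 0.48 (adjusted p = 0.0175 over all probes), and without RA the difference was 0.12 ± 0.48.

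Cacna1b, the N-type gene, and Cacna1e, the R-type gene, were near or below the detection limit. The single Cacna1b probe was above background on 5 of 8 arrays, 0 of 2 in untreated parental cells, 1 of 2 in parental cells with RA and all 4 in the clone. It read -6.82 and -5.68, -7.48 and -5.34, -5.41 and -5.61, and -3.84 and -5.67 in these groups in turn, ending with the clone with RA. The lines overlapped, and the averaged difference was 1.20 ± 0.60, with a 95% interval of -0.22 to 2.62 (adjusted p = 0.18). The Cacna1e probe was above background on 0 of 8 arrays, with readings of -8.46 to -6.69, and was not tested. The lowest reading above background on an array was between -7.39 and -5.34.

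Among the L-type genes no difference was called, and only Cacna1s had a probe above background on every array. Cacna1c, the L-type pore of heart, smooth muscle and most neurons, was above background on 5 arrays. It read -6.27 and -4.81 in untreated parental cells, -6.60 and -4.24 in parental cells with RA, -4.83 and -6.74 in the untreated clone, and -2.16 and -4.22 in the clone with RA. The clone arrays with RA were the highest, the second of them by only a narrow margin over 1 parental array with RA. The RA difference within the clone was 2.59 ± 1.08 (adjusted p = 0.228) and the averaged line difference 0.99 ± 0.77 (adjusted p = 0.369).

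Cacna1d, the L-type pore of neuroendocrine and pacemaker cells, rested on 1 array. Its brighter probe was above background on 2 arrays, 1 of the untreated clone and 1 of the clone with RA. It read -6.66 and -7.28 in untreated parental cells, -7.31 and -6.13 in parental cells with RA, -5.97 and -5.44 in the untreated clone, and 0.18 and -5.94 in the clone with RA. The 0.18 came from the clone RA array that stood apart, 6.12 log2 units above its replicate, and on the dimmer probe the same array was 3.57 above it. The line difference with RA was 3.85 ± 1.70 (adjusted p = 0.151). As a bound, the mean of the clone with RA was at least 9.88-fold above parental cells with RA, where the probe was not above background. This bound rests on the array that stood apart, as its replicate read -5.94, and does not hold for each array. A bound sets the mean of the brighter group, here with 1 of 2 arrays above background, against a mean for the other group that takes, on each array, the higher of the lowest reading above background and the reading of the probe itself. When the second clone RA array was left out instead, Cacna1d was called higher in the clone with RA (6.91, adjusted p = 0.000342) and with RA in the clone (5.89, adjusted p = 0.0041). That reading then rests on the array that stands apart.

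Cacna1f and Cacna1s are the L-type pores of photoreceptors and of skeletal muscle. The Cacna1f probe was above background on 1 of 8 arrays, in untreated parental cells, and was not tested. It read -4.91 and -4.22 there, and -7.97 to -6.17 on the other 6 arrays. As a bound, the mean of untreated parental cells was at least 4.92-fold above the untreated clone and at least 4.23-fold above parental cells with RA. That mean takes in 1 array that was not above background, so these are not strict bounds. Of the photoreceptor markers, Rcvrn was never above background, and 0 or 1 of 4 was on an array.

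The brighter Cacna1s probe was above background on all arrays, at -4.41 and -4.17, -4.73 and -4.06, -4.44 and -3.56, and -3.40 and -4.28 in the order untreated parental, parental with RA, untreated clone, clone with RA. The groups overlapped, and the averaged line difference was 0.42 ± 0.32 (adjusted p = 0.361). A dimmer Cacna1s probe was above background on clone RA replicate 1 only, where it was 5.02 above its replicate. The muscle marker Ckm was never above background, and 0 to 3 of 5 muscle markers were on an array. The array that stood apart also gave the highest readings of Cacna1b and Cacna1c, by 1.82 and 2.06 over its replicate. For both probes of Cacna1g and Cacna1a and the brighter probe of Cacna1h it was the lower of the pair, by 0.18 to 0.44. Without it, 2, 3 and 3 channel genes were called in the untreated, RA and averaged line comparisons, as with it.

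RA moved no channel gene past the threshold. In parental cells 0 of 8 were called, beside 1.12% of all genes, and in the clone 0 of 8, beside 4.63%; at an unadjusted p under 0.05, 0 of 8 channel genes passed in parental cells, beside 14.4% of all genes (3786), and 3 of 8 in the clone (Cacna1a, Cacna1c and Cacna1h), beside 21.6% (5666). Averaged over the lines, 0 of 8 were called, beside 5.83%, and 0 of 8 passed unadjusted, beside 22.7%. Cacna1h differed by -0.50 ± 0.32 in parental cells (95% interval -1.27 to 0.27, adjusted p = 0.578) and by 0.86 ± 0.32 in the clone (0.09 to 1.62, adjusted p = 0.19). Cacna1a differed by -0.65 ± 0.30 in parental cells (-1.37 to 0.07, adjusted p = 0.398) and by 0.87 ± 0.30 in the clone (0.15 to 1.59, adjusted p = 0.161). Cacna1g differed by -0.10 ± 0.29 and -0.01 ± 0.29. On their brighter probes Cacna1h and Cacna1a thus had lower mean readings with RA in the parental line and higher ones in the clone, within intervals that did not all exclude 0. The dimmer Cacna1h probe gave 0.01 ± 0.45 in parental cells and 0.79 ± 0.45 in the clone, so it showed no fall. The dimmer Cacna1a probe gave -0.52 ± 0.48 and 1.68 ± 0.48.

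Whether the response to RA differed between the lines was tested as an interaction. It was 1.36 ± 0.46 for Cacna1h (95% interval 0.27 to 2.44, adjusted p = 0.255) and 1.52 ± 0.43 for Cacna1a (0.51 to 2.54, adjusted p = 0.188). For Cacna1g it was 0.08 ± 0.41 (-0.88 to 1.04, adjusted p = 0.965). These values are from the brighter probes, and the 2 probes of Cacna1g disagreed. Its other probe gave 1.20 ± 0.42 (0.21 to 2.19, adjusted p = 0.312 over all probes). The dimmer probes gave 0.78 ± 0.64 for Cacna1h (adjusted p = 0.718) and 2.19 ± 0.68 for Cacna1a (adjusted p = 0.259). None of the 8 was called, beside 0.206% of all genes, and at an unadjusted p under 0.05 2 of 8 passed (Cacna1a and Cacna1h), beside 13.9% of all genes (3639). The interaction is the same contrast as the slide row, so these cannot be told apart.

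**Figure D3:**
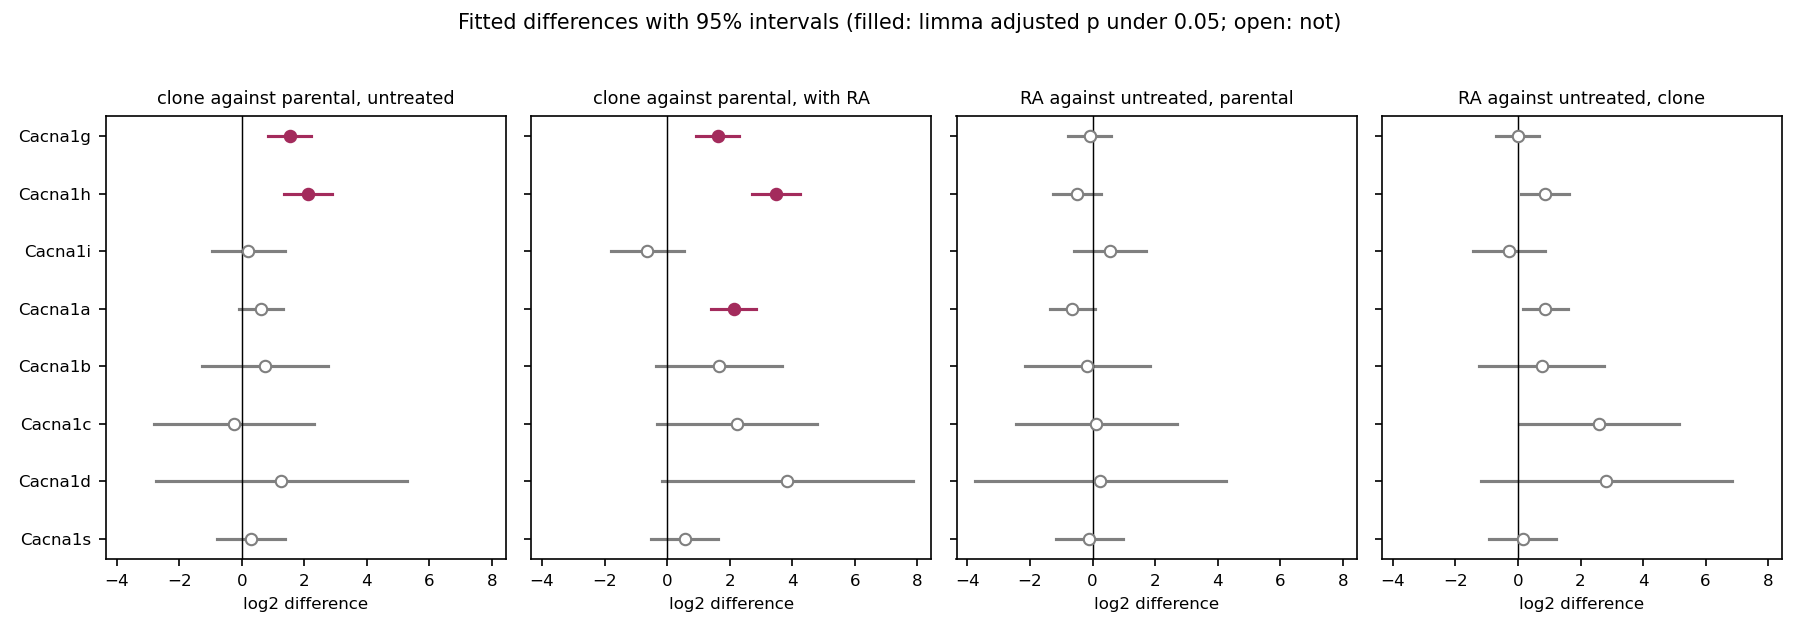
Fitted log2 differences (horizontal axis) with 95% intervals for the 8 tested channel genes in 4 comparisons, 1 panel each. Filled points passed an adjusted p under 0.05; Cacna1h and Cacna1g do so in untreated cells, Cacna1a joins them with RA, and no gene does so in the panels on RA.

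The 3 called genes were close to each other over the 8 arrays, with Pearson correlations of 0.942 for Cacna1g with Cacna1h, 0.918 for Cacna1a with Cacna1h and 0.869 for Cacna1a with Cacna1g. These are descriptions over arrays that share the same 4 groups. Among 12196 named genes above background on every array, the genes most like Cacna1h over the 8 arrays were Plppr3 (0.995), Prag1 (0.994) and Asphd1 (0.993). For Cacna1g they were D630045J12Rik (0.996), Lrfn4 (0.996) and Mrrf (0.995), and for Cacna1a Lrp1 (0.993), Igfbp5 (0.992) and Lrrc20 (0.990).

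The genes around the channels were read in 5 lists with 90 genes, 82 of them tested. In the averaged line comparison 28 were higher and 13 lower in the clone, beside 16.1% of all genes higher and 11.6% lower. Without RA 6 of 82 were higher and 8 lower, beside 6.13% of all genes higher and 9.82% called in either direction. With RA 20 were higher and 8 lower, beside 12.9% higher and 23.2% in either direction. RA changed 0 in parental cells, beside 1.12%, and 6 in the clone, 3 up and 3 down, beside 4.63%. For single genes below, differences are averaged over the treatments unless another comparison is named.

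Auxiliary subunits were higher or not called in the clone: 5 of 12 tested were higher and 0 lower, with a median difference of 0.76 over the list and 0.12 over all genes. Cacna2d2, an alpha2-delta subunit that raises the number of channels at the membrane, read -1.41 and -2.17 in untreated parental cells, -2.43 and -2.73 in parental cells with RA, -0.65 and -0.36 in the untreated clone, and -0.30 and -0.30 in the clone with RA. The lines did not overlap, and the clone was higher by 1.78 ± 0.24 (adjusted p = 0.00197). Cacna2d4, another alpha2-delta gene, was higher by 1.81 ± 0.25 (adjusted p = 0.0024), but it was above background on 3 arrays, none of them parental, and its call was lost with normexp background correction and with quantile normalization. Also higher were the beta subunit Cacnb1 by 0.88 and the gamma subunits Cacng4 by 1.34 and Cacng6 by 0.78 (Cacng6 was named after its values were seen). The beta subunit Cacnb3 gave 0.73 ± 0.23 (adjusted p = 0.0561) and was not called. The beta subunit Cacnb4 was not called either and had lower means in the clone. They were -4.61 without RA and -4.50 with RA, against -3.22 and -4.18 in parental cells. Its clone arrays with RA lay far apart, at -2.96 and -6.03. Cacnb3 and Cacnb4 are named outside the naming rule. Cacng5 rose with RA in the clone by 2.82 ± 0.53 (adjusted p = 0.0363), and Cacna2d4 fell by 1.77. Of the alternative settings, including each array left out, the call of Cacnb1 was lost in 9 of 17 and that of Cacng4 in 7 of 16, and with RA in the clone the call of Cacng5 was lost in 10 of 17 and that of Cacna2d4 in 12 of 16. With normexp background correction 1 auxiliary gene was called in place of 5. Without clone RA replicate 1, 3 were higher and 1 lower.

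Of 17 trafficking and gating regulators, 5 were higher and 3 lower in the clone, with a median of 0.27. Gem, a small GTPase that binds beta subunits and lowers high-voltage-activated current, read 2.39 and 1.72 in untreated parental cells, 0.85 and 0.94 in parental cells with RA, -0.48 and -0.45 in the untreated clone, and -1.07 and -0.72 in the clone with RA. All clone arrays were below all parental arrays, and the difference was -2.16 ± 0.22 (adjusted p = 0.000683). Rem2, of the same GTPase family, was lower, at -2.22 ± 0.37 (adjusted p = 0.00497), a call lost with normexp background correction. It was not above background in the untreated clone, where it was at least 9.56-fold lower than in untreated parental cells. Rem1, also of that family, went the other way: with RA it was higher in the clone by 1.76 ± 0.43 (adjusted p = 0.028). That call was lost in 9 of 16 alternatives. In the untreated clone Rem1 was at least 1.97-fold above untreated parental cells, where it was not above background. Stac, an adaptor that binds L-type channels, was higher by 2.29 ± 0.24 (adjusted p = 0.000745). Without clone RA replicate 1 the list had 5 higher and 2 lower.

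Of 13 presynaptic partners, the proteins that hold release sites near the channels, 3 were higher and 1 lower, with a median of 0.63. The active zone scaffolds Erc2, Bsn and Erc1 were higher by 1.78, 1.56 and 1.30, with adjusted p of 0.00256, 0.0068 and 0.00977. Erc1 was no longer called when its probes were averaged, its second probe giving -0.14 ± 0.20 (adjusted p = 0.642). Erc2 read 0.63 and 0.24 in untreated parental cells, 0.28 and -0.46 in parental cells with RA, 0.78 and 0.83 in the untreated clone, and 2.86 and 3.36 in the clone with RA. On this probe the clone arrays with RA stood well above the other 6, and RA raised the reading in the clone by 2.31 ± 0.36 (adjusted p = 0.0243), a call lost in 6 of 17 alternatives. A second Erc2 probe, dimmer but above background on all arrays, did not separate the groups: it read -0.00448 and -0.63 in the clone with RA and -1.69 and -0.24 in parental cells with RA, and gave 0.38 ± 0.52 for RA in the clone (adjusted p = 0.727 over all probes) and 0.58 ± 0.36 for the averaged line difference (adjusted p = 0.283). Rims3, a regulator of release, was lower, at -0.72 (adjusted p = 0.0421), a call lost in 9 of 17.

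Of 20 genes of other calcium entry, release and removal, 8 were higher and 5 lower, with a median of 0.56. Atp2b3, a calcium pump of the plasma membrane, read -2.50 and -3.25 in untreated parental cells, -3.92 and -5.52 in parental cells with RA, 0.12 and 0.92 in the untreated clone, and 0.36 and 0.94 in the clone with RA. It was 20.9-fold higher in the clone, with a difference of 4.39 ± 0.42 (adjusted p = 0.000476). Slc8a2, a sodium-calcium exchanger, was higher by 2.06 ± 0.21 (adjusted p = 0.000667). Atp2a3, a pump of the endoplasmic reticulum, was lower, at -2.23 ± 0.24 (adjusted p = 0.000839), as was the release channel Ryr2, at -2.07 ± 0.20 (adjusted p = 0.00054). Ryr2 was not above background in the untreated clone and was at least 11.0-fold lower there than in untreated parental cells, and its averaged call was lost with normexp background correction. Itpr1, the release channel opened by inositol trisphosphate, was higher in the clone with RA by 2.60 ± 0.29 (adjusted p = 0.00136).

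Of 20 calcium-dependent effectors, 7 were higher and 4 lower, with a median of 0.29. Kcnn2, a small-conductance potassium channel opened by calcium, read 1.39 and 1.00 in untreated parental cells, 0.14 and -0.08 in parental cells with RA, -4.32 and -3.92 in the untreated clone, and -4.22 and -3.69 in the clone with RA. The lines were far apart, with the clone 25.1-fold lower (a difference of -4.65 ± 0.23, adjusted p = 3.3e-05). The related Kcnn3 was higher in the clone with RA by 3.53 ± 0.61 (adjusted p = 0.00725), lost with quantile normalization or without parental RA replicate 1. Nfatc4 and Nfatc2, transcription factors switched on by calcineurin, were lower, at -2.15 ± 0.19 and -1.62 ± 0.19; Nfatc2 was no longer called when its probes were averaged, its dim second probe giving 0.17 ± 0.87 (adjusted p = 0.906). Camk4, a calcium-activated kinase of the nucleus, was higher by 1.97 ± 0.21 (adjusted p = 0.000763).

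**Figure D4:**
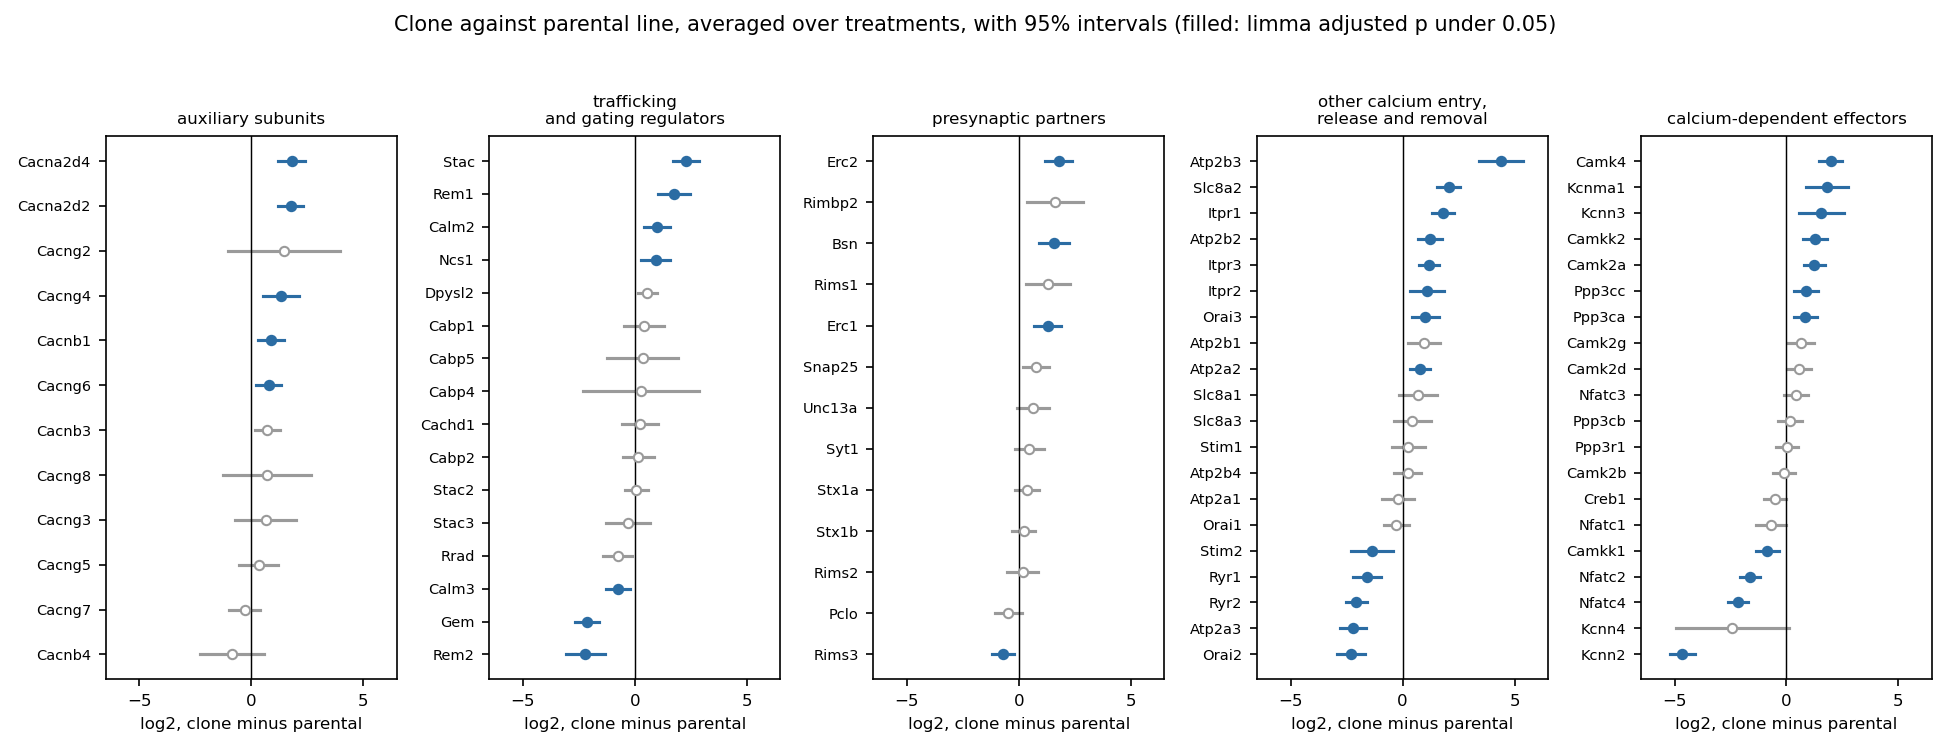
Difference between the clone and the parental line averaged over treatments (horizontal axis, log2) with 95% intervals, for tested genes of the 5 calcium lists, 1 panel per list. Filled points passed an adjusted p under 0.05; Atp2b3 at 4.39 is the highest and Kcnn2 at -4.65 the lowest called gene of these lists.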

How the data were processed

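Per the file headers, the scanner tables hold spot intensity after background subtraction and spatial detrending (Feature Extraction version 10.7.3.1), not scaled between arrays. The log2 values of the deposited series table were checked against them and differ from log2 intensity only by an offset for each array. Here log2 intensity was taken minus the 75th percentile over non-control spots of each array (an intensity of 265 to 1264). Spots marked as outliers were dropped and spots of a probe averaged. Of 55681 probes, the 36636 that passed the scanner software's background test on 2 or more of the 8 arrays were kept, and the brightest stood for its gene. Only 15183 of the 26262 genes had a symbol, matched through RefSeq accessions; the others entered the tests unnamed. With 2 arrays per group, their number limits the precision.

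All 8 arrays entered a single linear model of 4 group means (limma 3.58.1, R 4.3.3; 4 residual and 3.00 prior degrees of freedom), and 7 comparisons were drawn from it, with Benjamini-Hochberg adjustment over all genes, or over all kept probes where a single probe is given. By rule, the genes named are the 10 channel genes, Chat, up to 4 called genes per list and comparison by smallest adjusted p, and the 3 genes most correlated with each called channel gene. Lmna, also in that rule, is left out because no result here turns on it. Cacng6, Cacnb3 and Cacnb4 are named in addition to the rule. The members, lists and tests were chosen with earlier results of these data known.

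Alternatives were normexp background correction (offset 50, on the median spot signal because the tables hold no mean signal), quantile normalization, the series table, no or a stricter filter on dim probes, averaged probes per gene, eBayes with trend and robust settings, a fit of only the groups compared, slide side as a block, leaving out each array, and, added after seeing the files, slide row as a block. No coordinates were used. One list gene that the naming rule picks is not reported here and is left out of the plot of lists, but it stays in the counts.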

Additional observations from a re-analysis of the deposited data

How the results depend on the processing

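Over 17 alternatives, Cacna1a, Cacna1g and Cacna1h were called higher in the clone in the averaged line comparison under each of them, at 1.16 to 1.49, 1.12 to 2.11 and 1.88 to 2.96. Cacna1h with RA (2.41 to 3.81) and Cacna1a with RA (1.91 to 2.33) were also called under all 17. Slide row as a block left the averaged differences as they were, because the row equals the interaction. Dropping the filter on dim probes left the untreated count at 2 although Cacna1g was no longer called, so another channel gene was called there. Only that setting tested Cacna1e and Cacna1f. The Cacna1f mean was -4.56 in untreated parental cells and -7.66 in the untreated clone, so a call outside the 3 genes need not be higher in the clone. In untreated cells the count of channel genes called fell from 2 to 1 with normexp, and leaving out 1 array gave 0 to 2: 0 without untreated clone replicate 1 or 2 or untreated parental replicate 1, and 1 without untreated parental replicate 2. Leaving out 1 array gave 0 to 1 for RA in the clone, the interaction and RA averaged over lines, and 3 to 5 for the averaged line comparison; the higher counts came without clone RA replicate 2, when Cacna1d was called, and Cacna1b in the last. Without it Cacna1d gave 5.64 for the interaction and 4.08 for the averaged line difference. The median of all genes in the averaged line comparison was 0.12, and scaling moved it to -0.04 with quantile normalization and -0.06 with normexp.

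Signs that turned were all in uncalled values. With normexp, Cacna1d gave -0.30 in untreated cells and -0.49 for RA in parental cells, Cacna1b gave -0.0875 for the line and -0.17 for RA in the averages, and Cacna1s gave -0.10 for averaged RA. With quantile normalization, Cacna1s gave -0.0527 for the averaged line and -0.46 for averaged RA, and Cacna1b -0.0426 for averaged RA. The series table gave -0.00984 for Cacna1s in averaged RA, and the mean of probes 0.10 for Cacna1g with RA in the clone. Leaving out 1 array gave, for RA in parental cells, -0.25 to 0.0527 for Cacna1g and -0.34 to 0.84 for Cacna1d; for RA in the clone, -0.24 to 0.21 for Cacna1g; for its interaction, -0.14 to 0.30; for the averaged line, -0.48 to 0.0647 for Cacna1i; and for averaged RA, -0.0024 to 0.22 for Cacna1a, -0.24 to 0.83 for Cacna1b, -0.17 to 0.0550 for Cacna1g, -0.14 to 0.41 for Cacna1i and -0.20 to 0.24 for Cacna1s.

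For the 5 lists, the averaged line counts moved from 5 to 1 (normexp), 3 (quantile) and 2 (no filter) for auxiliary subunits, from 8 to 4 (normexp) and 5 (no filter) for regulators, and from 11 to 7 with either for effectors. Over all lists, untreated counts moved from 14 to 8 (normexp), 9 (quantile) and 7 (no filter), and counts with RA from 28 to 14 with only the groups compared. RA in the clone moved from 6 to 1 (normexp), 3 (quantile), 0 (no filter, or only the groups compared) and 11 (trended variance). RA in parental cells moved from 0 to 4 (stricter filter) and 5 (trended variance), and the interaction from 0 to 1 and 3. Leaving out 1 array gave 2 to 6, 5 to 8, 3 to 6, 9 to 14 and 7 to 12 for the lists in the order of the report, and over all lists 4 to 17 untreated, 20 to 31 with RA, 0 to 1 for RA in parental cells, 0 to 8 for RA in the clone and 0 to 4 for the interaction. Over all genes, the untreated comparison called 2578 genes, against 1213 with normexp, 2410 with quantile and 1386 without a filter. The averaged line comparison called 7276, against 4474, 7312 and 4888 in these settings. The line comparison with RA called 6081, against 2628 with only the groups compared. RA in the clone called 1216, against 439 (normexp), 1175 (quantile), 0 (no filter, or only the groups compared) and 2173 (trended variance). RA in parental cells called 294, against 635 (stricter filter) and 803 (trended variance), and the interaction 54, against 311 and 452. The cause of these shifts was not tested. No paired analysis was possible because the labels carry no replicate numbers; slide side as a block changed no call of a channel gene. Dim signal over background limits Cacna1b to Cacna1f.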
